A study of Mus musculus with 30 samples.

Results

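Transcript levels of 10 heat shock proteins and co-chaperones were followed in the quadriceps of mice that model myotonic dystrophy type 1 (DM1). The genes were *Hspa1a*, *Hspa1b*, *Hspa8*, *Hsph1*, *Hsp90aa1*, *Dnajb1*, *Hspb1*, *Hspb7*, *Cryab* and *Bag3*. They were chosen by name from the 56748 genes of the count table, and all 10 passed the filter on low counts. Poly(A) RNA of 30 mice in 8 groups was sequenced. HSA-LR20b mice carry a human skeletal actin transgene with a long CTG repeat, driven in skeletal muscle by the actin promoter, so that the repeat RNA is made in muscle fibres and not in the other tissues affected in patients. All HSA-LR20b mice carry the transgene, nontreated controls included, and WT mice are FVB/N without it. Mice were 8 weeks old when injections into the tail vein began, and quadriceps was collected 2 weeks after the last of them.

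The controls were 5 untreated WT mice and 8 nontreated HSA-LR20b mice (NT). All treated mice were HSA-LR20b. A dose of 5.3 mg/kg pacDNA-L9 went to 4 mice, 21.2 mg/kg to 3 and 42.4 mg/kg to another 3. Free L9 was injected into 3 mice at 5.3 mg/kg. The polymer without oligonucleotide (Brush, 40 nanomoles) and the polymer with a scrambled sequence (pacDNA-Scr, dosed at 5.3 mg/kg) had 2 mice each. The higher doses of pacDNA-L9 were reached by repeated injection, so dose cannot be told apart from the number of injections. L9 is an antisense oligonucleotide of locked nucleic acids against the CUG repeat, and pacDNA is its conjugate with a bottlebrush polymer. The comparison of NT with WT asks what differs in mice that carry the repeat transgene. No group carried the transgene without the long repeat, so the repeat and the rest of the transgene cannot be told apart. Each treated group was compared with NT.

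Libraries held 13605309 to 26956558 counts. The labels number 2 sets of libraries separately, 24 in the first and 6 in the second, and 5 of the 6 list all 37 mitochondrial genes at 0. The second set holds NT mice 7 and 8, the mice C and D at 5.3 mg/kg, mouse C at 21.2 mg/kg and L9 mouse C, and its labels give no strain. The deposited set was therefore a term of the model. All 8 markers of the skeletal myofibre were detected, with a summed level of 105163 to 186533 CPM per library, against 2.77 to 1293 CPM for 5 markers of slow fibres. In 1 library, L9 mouse B, mitochondrial genes took 22.3% of the counts, above the 0 to 13.3% of the others. In whole muscle, fewer cells of a type and less RNA per cell cannot be told apart.

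Chaperones bind proteins that are unfolded or misfolded. HSP70 proteins take up their clients from J-domain co-chaperones, hydrolyse ATP and are reset by nucleotide exchange factors, among them HSP110 and BAG proteins. Small heat shock proteins hold clients without ATP, and in striated muscle they sit at the Z-disc and work with *Bag3* to remove damaged filamin. The inducible members are switched on by heat shock factor 1, which binds inverted repeats of a short GAA unit, the heat shock element.

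Promoter windows of 300 bases, with 250 before the start and 50 from it, were taken from RefSeq (GRCm38.p6), which held 7 of the 10 genes. *Hspa8*, *Hsp90aa1* and *Cryab* had no entry. *Hspb1* and *Hspb7* are shown because they differed between NT and WT, and *Hspa1a* and *Hspa1b* because their windows are nearly alike. Capitals mark the GAA and TTC of each facing pair, GAANNTTC or TTCNNGAA, the shortest form of the element, and both patterns read the same on either strand. The windows are chr5:135887669-135887968 (plus strand) for *Hspb1*, chr4:141420529-141420828 (plus) for *Hspb7*, chr17:34972107-34972406 (minus) for *Hspa1a* and chr17:34959189-34959488 (minus) for *Hspa1b*, each written 5′ to 3′ along the gene.
Hspb1: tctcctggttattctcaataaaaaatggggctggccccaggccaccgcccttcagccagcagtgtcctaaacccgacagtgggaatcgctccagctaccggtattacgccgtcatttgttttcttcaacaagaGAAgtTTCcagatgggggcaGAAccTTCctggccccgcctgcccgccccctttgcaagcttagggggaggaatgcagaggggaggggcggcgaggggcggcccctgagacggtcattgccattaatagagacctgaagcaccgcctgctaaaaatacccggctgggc
Hspb7: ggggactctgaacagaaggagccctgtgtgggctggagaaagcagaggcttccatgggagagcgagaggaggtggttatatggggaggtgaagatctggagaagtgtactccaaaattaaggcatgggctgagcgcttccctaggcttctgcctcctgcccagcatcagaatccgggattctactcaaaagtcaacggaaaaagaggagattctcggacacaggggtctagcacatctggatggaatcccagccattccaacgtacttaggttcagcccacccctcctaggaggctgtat
Hspa1a: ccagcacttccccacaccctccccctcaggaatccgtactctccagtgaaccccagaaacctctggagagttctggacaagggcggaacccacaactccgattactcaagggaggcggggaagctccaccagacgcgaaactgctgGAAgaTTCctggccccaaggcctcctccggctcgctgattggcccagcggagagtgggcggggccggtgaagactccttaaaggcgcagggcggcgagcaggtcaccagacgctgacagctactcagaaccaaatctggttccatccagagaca
Hspa1b: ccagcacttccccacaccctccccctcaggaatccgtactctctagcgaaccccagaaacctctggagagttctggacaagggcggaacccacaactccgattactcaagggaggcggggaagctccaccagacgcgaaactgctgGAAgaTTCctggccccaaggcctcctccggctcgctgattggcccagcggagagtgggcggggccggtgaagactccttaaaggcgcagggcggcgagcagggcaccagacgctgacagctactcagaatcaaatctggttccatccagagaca

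The *Hspb1* window held 2 facing pairs, at positions -117 to -110 and -97 to -90 from the start. The *Hspa1a* and *Hspa1b* windows held 1 each, at -104 to -97. No pair was found in the *Hspb7* window. Of the 7 genes with an entry, 5 held at least 1 pair, since *Hsph1* and *Bag3* did and *Dnajb1* did not. Of all 32851 windows, 15.1% held at least 1 pair and 1.96% held at least 2. A run of 3 units in a row stood in 0.603% of them. Of the 7 genes only *Hsph1* held such a run, so none of the windows printed above did. These letters describe the windows and were not tested as binding sites.

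*Hspb7* and *Hspb1*, but not *Cryab*, were called higher in NT than in WT. *Hspb7* (ENSMUSG00000006221, chromosome 4, 141148090 to 141152625, plus strand, GRCm39), a small heat shock protein of heart and skeletal muscle that binds filamin, was at 131, 109.8, 136, 208 and 428 CPM (counts scaled to the TMM-adjusted library size) in the 5 WT mice. In the 8 NT mice its level ran from 829.4 to 1947 CPM with a median of 1172 CPM. Every NT mouse lay above every WT mouse, and the highest WT value came from the mouse whose label has no number in the table. The log2 fold change was 2.51 ± 0.29 (SE), or 5.71-fold, with an adjusted p of 1.28e-06 by edgeR's quasi-likelihood test.

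*Hspb1* (ENSMUSG00000004951, chromosome 5, 135916760 to 135918417, plus strand) encodes HSP25, the mouse form of HSP27, which protects actin filaments. Its level was 198, 94.0, 132, 139 and 249 CPM in WT. The NT mice ran from 223 to 685 CPM, with a median of 457 CPM. The groups overlapped only where NT mouse 2 fell below the unnumbered WT mouse. The log2 fold change was 1.44 ± 0.29, with an edgeR adjusted p of 0.00196. Both genes kept their call with each of the 30 mice left out in turn. Within the first set alone, the log2 fold changes were 1.43 for *Hspb1* and 2.46 for *Hspb7*, with edgeR adjusted p of 0.00471 and 3.89e-05.

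These 2 of 10 genes were the only ones called between NT and WT, against a background of 5.31% of 17518 genes called in either direction and 3.64% called higher. *Bag3* (ENSMUSG00000030847, chromosome 7, 128125283 to 128148705, plus strand), the co-chaperone that couples HSP70 to small heat shock proteins, was at 125 ± 33.9 CPM (SD, n = 5) in WT and 169.8 ± 26.4 CPM (SD, n = 8) in NT. Its log2 fold change of 0.46 (95% interval 0.08 to 0.83) did not pass, with an edgeR adjusted p of 0.178. *Cryab* (ENSMUSG00000032060, chromosome 9, 50651859 to 50668567, plus strand), αB-crystallin, which binds desmin, was at 623 ± 349.9 CPM (SD, n = 5) in WT and 956 ± 313 CPM (SD, n = 8) in NT, with a log2 fold change of 0.62 (-0.05 to 1.3) and an edgeR adjusted p of 0.359. The unnumbered WT mouse held 1233 CPM of *Cryab*, against 392 to 600.2 CPM in the other WT mice. Of its exon bases, 37.0% overlap genes on the other strand, among them *Hspb2*. For *Bag3* this share is 18.6%. The counting's use of strand is not given in the sources used here.

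The other 6 of the 10 genes, those of the HSP70, HSP110, HSP90 and J-domain families, were not called between NT and WT. *Hspa8* (ENSMUSG00000015656, chromosome 9, 40711630 to 40731039, plus strand), the constitutive HSP70 that uncoats clathrin, was at 784, 529.9, 442, 483 and 1125 CPM in WT and ran from 417 to 1109.9 CPM in NT, with a median of 598 CPM. The WT range enclosed every NT mouse but mouse 2. It had a log2 fold change of -0.22 (95% interval -0.69 to 0.24). *Hsph1* (ENSMUSG00000029657, chromosome 5, 149537636 to 149560156, minus strand), an HSP110 that resets HSP70, had a log2 fold change of -0.55 (-1.02 to -0.08), with an edgeR adjusted p of 0.198. The unnumbered WT mouse had 245 CPM of *Hsph1*, above the 82.2 to 137 CPM of the other WT mice, and without it the log2 fold change was -0.18. *Hsp90aa1* (ENSMUSG00000021270, chromosome 12, 110656842 to 110669166, minus strand), the inducible HSP90, was at 111, 53.6, 47.2, 49.7 and 159 CPM in WT and ran from 32.1 to 149 CPM in NT, with a median of 47.7 CPM. Its log2 fold change was -0.79 (-1.69 to 0.11). *Dnajb1* (ENSMUSG00000005483, chromosome 8, 84334811 to 84339820, plus strand), the J-domain partner of inducible HSP70, was at 25.01, 5.67, 10.3, 11.5 and 18.1 CPM in WT and ran from 5.33 to 14.8 CPM in NT. The groups overlapped, and its log2 fold change was -0.64 (-1.63 to 0.36). For the inducible HSP70 genes *Hspa1a* (ENSMUSG00000091971) and *Hspa1b* (ENSMUSG00000090877) the values were 0.06 (-2.12 to 2.25) and 0.11 (-1.97 to 2.18). Intervals that include 0 do not show that the levels were alike.

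**Figure D1:**
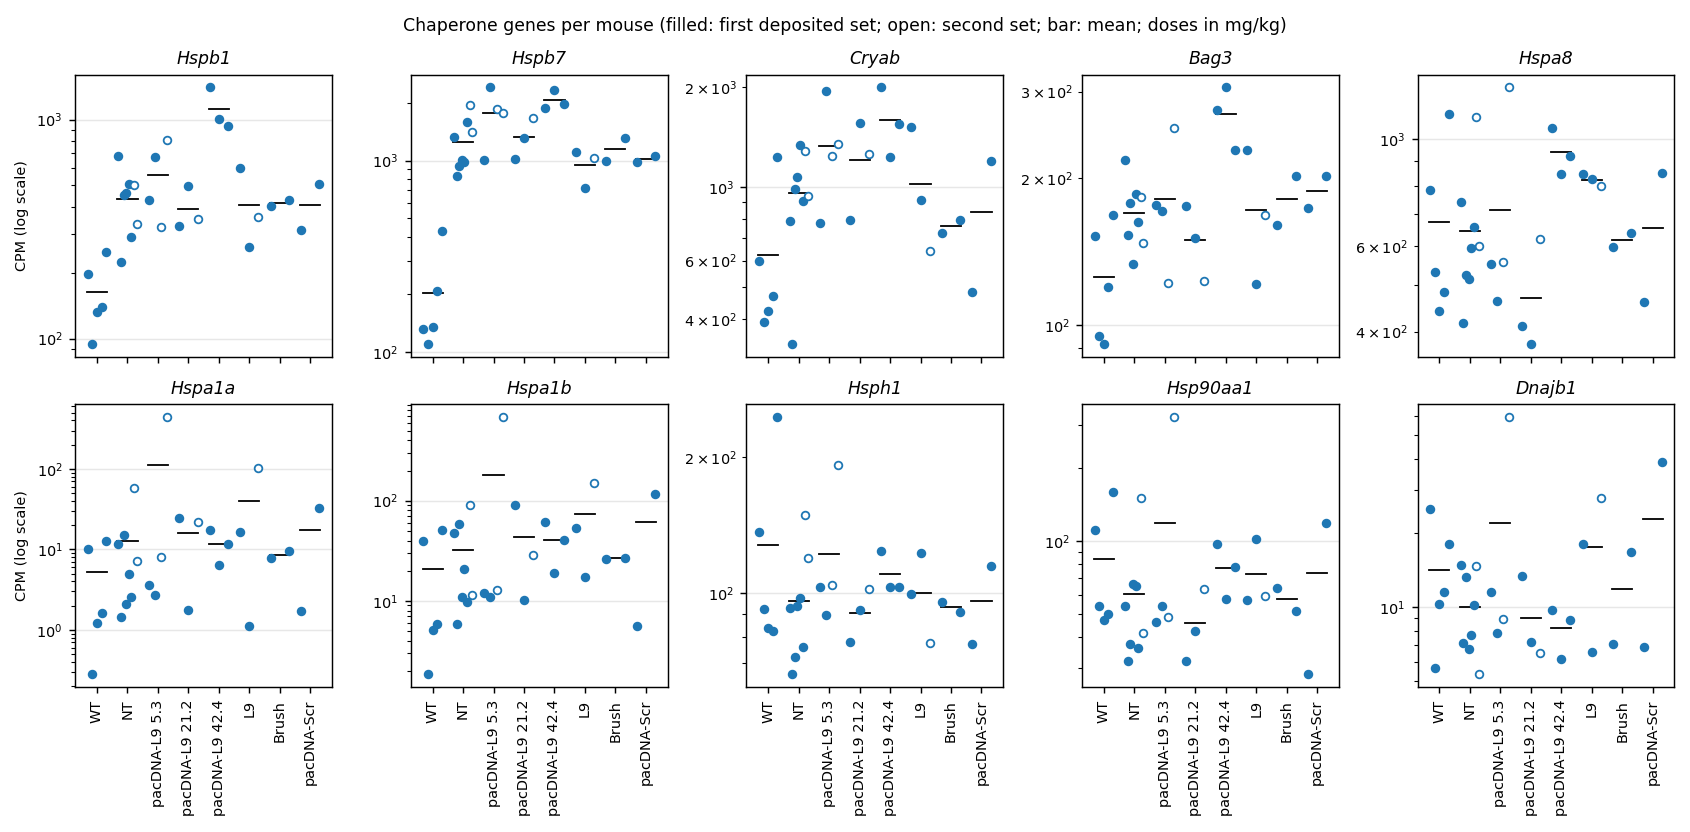
CPM of each gene in every mouse on a log axis, by group, with filled points for the first deposited set, open points for the second and a bar at the mean. *Hspb7* lay at 829.4 to 1947 CPM in NT against 109.8 to 428 CPM in WT, and the 3 mice at 42.4 mg/kg held 931 to 1402 CPM of *Hspb1*, above every NT mouse.

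Of 6 further small heat shock genes, 4 passed the filter and *Hspb6*, which encodes HSP20, was called, at 1347 ± 426 CPM (SD, n = 8) in NT and 571 ± 216 CPM (SD, n = 5) in WT (log2 fold change 1.39 ± 0.21, edgeR adjusted p = 6.01e-05). *Hspb8*, the partner of *Bag3*, had a log2 fold change of 0.73 with an edgeR adjusted p of 0.0514, and *Hspb3* one of 0.55 with 0.0722. *Hspb2*, which lies head to head with *Cryab*, had 0.18. The median log2 fold change of the 4 was 0.64, against -0.028 over all genes tested.

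Of 10 genes of the BAG family and chaperone-assisted selective autophagy, 2 were called higher and 1 lower. *Flnc*, the filamin that this pathway clears, was at 1625 ± 323 CPM (SD, n = 8) in NT and 672 ± 96.6 CPM (SD, n = 5) in WT (log2 fold change 1.29 ± 0.23). *Synpo2*, which links *Bag3* to the autophagy machinery, had a log2 fold change of 0.61 ± 0.11. Its call was lost with replicate numbers as a block, fitted to 8 mice (edgeR adjusted p = 0.057). *Bag2*, an inhibitor of the ubiquitin ligase *Stub1*, had -0.50 ± 0.15 with an edgeR adjusted p of 0.0454, and its call was lost in 8 of the other settings. The list's median was 0.02.

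Among 11 further HSP70 and HSP110 genes, *Hspa2*, an HSP70 best known from the testis, was called at 19.7 ± 5.99 CPM (SD, n = 8) in NT and 6.90 ± 1.60 CPM (SD, n = 5) in WT (log2 fold change 1.57 ± 0.21). Of 16 J-domain genes, *Dnaja4* rose, with a log2 fold change of 1.15 ± 0.20, and so did *Dnajc7*, with 0.42 ± 0.11. The call of *Dnajc7* was lost without the filter on low counts, with the replicate block and without WT mouse 2 or 3. None of 16 genes of the HSP90 family and its co-chaperones was called by edgeR, with 3 at an unadjusted p under 0.05, and none of 8 HSP70 cofactors, with 1. Of 10 chaperonin genes *Tcp1* was called, with a log2 fold change of 0.36 ± 0.09. Its call was lost without the filter on low counts (edgeR adjusted p = 0.173) and with the replicate block (0.115). Among 4 heat shock factors and regulators, *Hsf2* was called, with a log2 fold change of 0.74 ± 0.14, while *Hsf1*, the main factor of the heat response, had -0.20 ± 0.17.

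None of 14 chaperones of the endoplasmic reticulum was called by edgeR, with 1 at an unadjusted p under 0.05. Among 13 immediate early genes, which respond within minutes to stimulation or handling, *Atf3* and *Jun* were called, with log2 fold changes of 2.84 ± 0.53 and 1.14 ± 0.25. Counted once each, 10 of the 98 tested genes of these lists were called higher and 1 lower in NT, or 11.2%, beside the 5.31% of all genes. *Atf3* and *Jun* are among them. The lists were chosen with earlier results of these data known, so this share is a description and not a test.

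**Figure D2:**
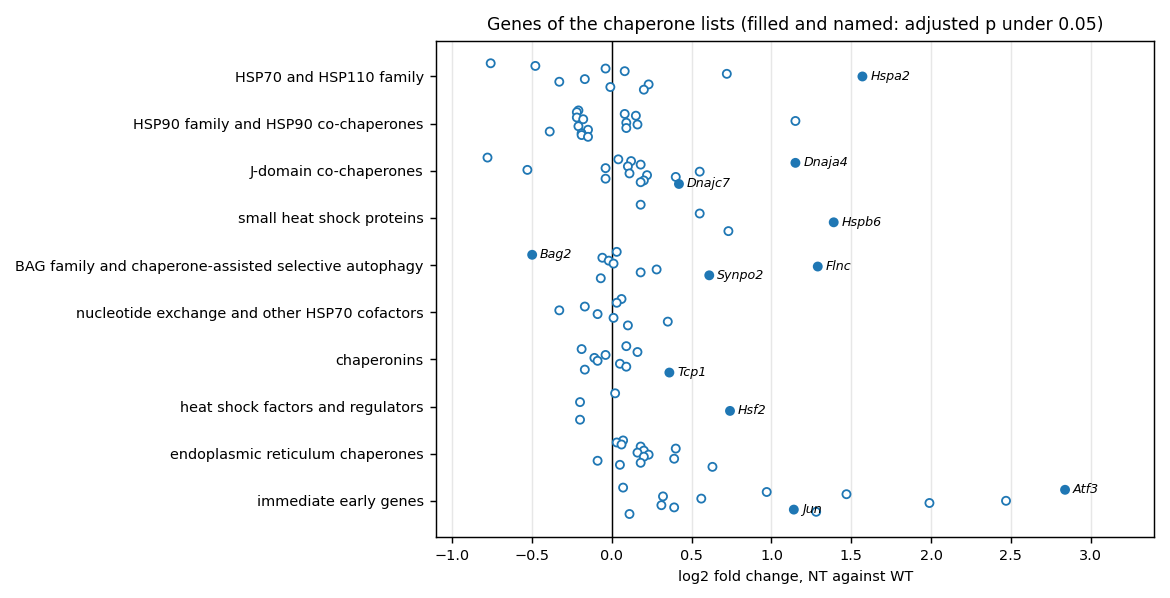
Log2 fold change of NT against WT for every tested gene of 10 lists of chaperone and stress genes, 1 point a gene, filled and named where the edgeR adjusted p is under 0.05. *Hspa2*, *Dnaja4*, *Hspb6*, *Flnc*, *Atf3* and *Jun* lie above 1, and *Bag2* is the 1 called gene below 0.

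Markers of other cells were set beside this comparison. Of 6 macrophage markers, *Cd68* was called higher in NT, as was *Myh1* of the 8 myofibre markers. Of 4 smooth muscle and pericyte markers, *Acta2* was called lower. Summed macrophage markers ran from 31.3 to 53.8 CPM in WT and from 37.4 to 68.1 CPM in NT. None of the markers of slow fibres, endothelium, fibroblasts, adipocytes, satellite cells or red blood cells was called by edgeR. Their part in the result was not tested.

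At 42.4 mg/kg pacDNA-L9, *Hspb1* was higher than in NT. The 3 mice held 1402, 1005 and 931 CPM, all above the 223 to 685 CPM of the 8 NT mice. The log2 fold change was 1.34 ± 0.31, or 2.53-fold, with an edgeR adjusted p of 0.0106. It was the 1 gene of 10 called, against a background of 3.14% of all genes in either direction and 2.28% higher. *Bag3*, at 275, 306 and 228 CPM, also lay above all NT mice, which ran from 133 to 217 CPM, but its log2 fold change of 0.65 (95% interval 0.22 to 1.07) had an edgeR adjusted p of 0.0933.

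*Hspb7* was at 1883, 2329 and 1981 CPM, with NT mouse 7 within that range, and its log2 fold change of 0.83 (0.22 to 1.45) had an edgeR adjusted p of 0.154. *Hspa8* was at 1051, 847 and 920.2 CPM, with a log2 fold change of 0.71 (0.17 to 1.24) and an edgeR adjusted p of 0.179. *Cryab* was at 1991, 1232 and 1540.1 CPM, with 0.73 (-0.04 to 1.49). These 3 genes overlapped with NT. The median log2 fold change of the 10 genes was 0.72, and 9 lay above 0, against a median of -0.02 over all genes, of which 47.5% lay above 0. The 10 values come from the same mice, and the genes varied together, as described further on. They are not 10 independent observations. With library naming as a term, described in the next paragraphs, the median of the 10 was 0.12 and 6 lay above 0. Without the set term the median was 0.45. The 1 gene below 0 in the fit reported was *Dnajb1*, at -0.14 (-1.34 to 1.06). NT levels of *Hspb1* and *Hspb7* were themselves above WT, and the mice at 42.4 mg/kg lay further from WT than most NT mice did.

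**Figure D3:**
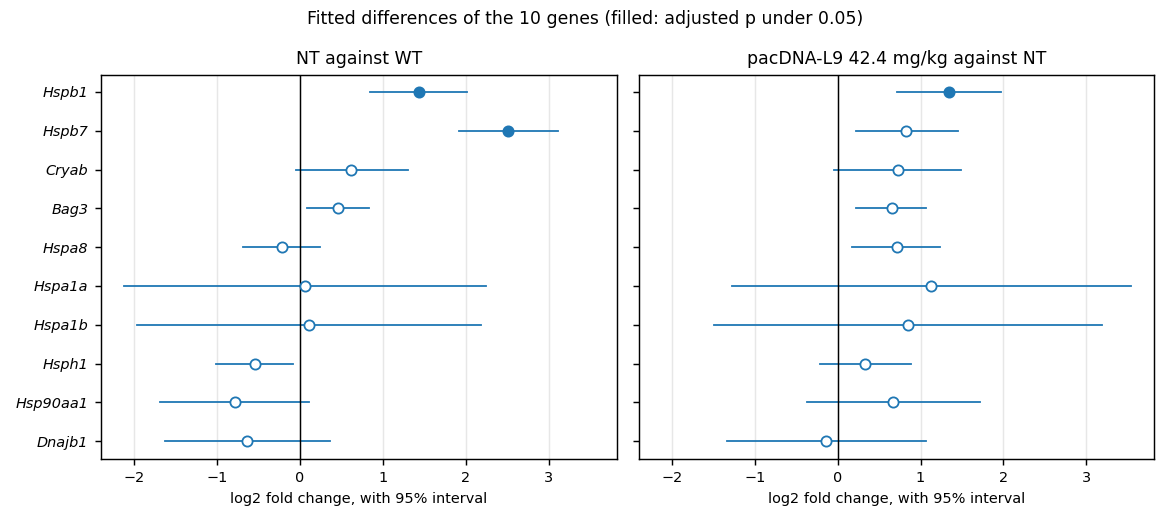
Fitted log2 fold change with its 95% interval for each gene, NT against WT on the left and 42.4 mg/kg pacDNA-L9 against NT on the right, filled where the edgeR adjusted p is under 0.05. *Hspb7* at 2.51 and *Hspb1* at 1.44 are filled on the left, and *Hspb1* at 1.34 is filled on the right.

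The call of *Hspb1* at 42.4 mg/kg depended on which libraries and terms entered. Without mouse A the edgeR adjusted p was 0.0895, with a log2 fold change of 1.13. Without mouse B it was 0.0584, with 1.41. Within the first set it was 0.025, with 1.34. All 3 mice were female, as were 4 of the 8 NT mice, which held 451 to 508 CPM against 223 to 685 CPM in the males. With sex as a term *Hspb1* kept its call (edgeR adjusted p = 0.0192) and *Bag3* gained one, with 0.74 and 0.046.

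All 3 libraries are also among 9 of the first set that carry a group and running number as their only name. With this naming as a term, the log2 fold change of *Hspb1* was 1.12 with an edgeR adjusted p of 0.208, and that of *Hspb7* was 0.27. In the groups that hold both kinds of name, the library named this way had 248.6 CPM of *Hspb1* against 94.0 to 198 CPM in the other WT mice. It had 289.9 CPM against 223 to 685 CPM in NT, 428 against 401 CPM in Brush and 506 against 312 CPM in pacDNA-Scr. Its *Hspb7* was at 428 CPM against 109.8 to 208 CPM in WT and 1581 against 829.4 to 1332 CPM in NT. It was 1305 against 990 CPM in Brush and 1059 against 978 CPM in pacDNA-Scr. *Cryab* and *Hspa8* in this library also lay above the mean of the others in each of these groups. *Bag3* lay below that mean in NT, at 163 against 173 CPM, and above it in the other groups. What the naming stands for is not given in the sources used here.

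Macrophage markers moved with the 42.4 mg/kg group, where 4 of 6 were called higher (*Csf1r*, *C1qa*, *Cd68* and *C1qb*) and their sum ran from 102.6 to 147 CPM, against 37.4 to 68.1 CPM in NT. The sum was 90.5 to 105 CPM in Brush, where *Hspb1* was at 401 and 428 CPM and lay within the range of NT. It was 78.2 to 98.1 CPM at 5.3 mg/kg and 62.8 to 112 CPM at 21.2 mg/kg. In pacDNA-Scr it was 57.0 to 75.3 CPM, and with free L9 35.6 to 51.6 CPM. Over the 30 residuals described further on, the sum had r = 0.29 with *Hspb1*. Of 4 red blood cell markers, *Hba-a2* was called higher at 42.4 mg/kg. The part of these cells in the level of *Hspb1* was not tested. None of the 5 slow fibre markers was called by edgeR at 42.4 mg/kg, but the median of their sum was higher there. It was 887 CPM (65.5 to 1225 CPM), against 124 CPM (2.77 to 1034 CPM) in NT. The median was also above that of NT in every other treated group. It was 809 CPM at 5.3 mg/kg, 586 CPM at 21.2 mg/kg and 693 CPM with free L9. In Brush it was 427 CPM and in pacDNA-Scr 509 CPM. Over the residuals, the slow fibre sum had r = 0.05 with *Hspb1* and 0.40 with *Hspb7*. The part of slow fibres in these levels was not tested.

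Of the lists of chaperone and immediate early genes, 3 of 98 were called at 42.4 mg/kg, all higher. This is 3.06%, beside 3.14% of all genes. *Fkbp5*, a co-chaperone of HSP90 that is induced by glucocorticoids, was at 315 ± 158 CPM (SD, n = 3), against 40.7 ± 18.9 CPM (SD, n = 8) in NT, with a log2 fold change of 3.03 ± 0.55. *Flnc* was at 3169 ± 115 CPM (SD, n = 3) with a log2 fold change of 0.95 ± 0.25, and its call was lost when any 1 of the 3 mice, or NT mouse 3 or 5, was left out. *Atf3*, an immediate early gene, had a log2 fold change of 1.89 ± 0.51, lost in 5 of the other settings. The median log2 fold change of the 13 immediate early genes was -0.42. With naming as a term the edgeR adjusted p of *Fkbp5* was 0.0603. None of the 4 further small heat shock genes was called by edgeR, and none had an unadjusted p under 0.05, with a median log2 fold change of 0.05.

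None of the 10 genes was called by edgeR at the lower doses or in the control treatments, and the backgrounds were low as well. The share of all genes called was 0.0685% for 21.2 mg/kg, 0.942% for free L9 and 0.0% for each of 5.3 mg/kg, Brush and pacDNA-Scr. DESeq2 called none of the 10 in these comparisons either. In 4 of the 5 comparisons none of the 10 had an unadjusted p under 0.05. In pacDNA-Scr 1 did, *Dnajb1*, at 6.85 and 38.9 CPM, with an edgeR p of 0.0388 before and 1.0 after adjustment. Among the list genes, *Hsbp1*, a regulator of heat shock factor 1, was called with free L9, at a log2 fold change of 0.57 and an edgeR adjusted p of 0.0362. Without L9 mouse B it was 0.25, with 0.42.

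*Hspb1* was at 427, 674, 323 and 807 CPM in the mice given 5.3 mg/kg. At 21.2 mg/kg it was at 326, 496 and 351 CPM. Free L9 gave 600.2, 263 and 358 CPM. All these groups overlapped with NT. Its log2 fold change was 0.40 (95% interval -0.20 to 0.99) for 5.3 mg/kg and -0.14 (-0.79 to 0.52) for 21.2 mg/kg. For free L9 it was -0.08 (-0.73 to 0.57). It was -0.08 (-0.86 to 0.69) in Brush and -0.10 (-0.88 to 0.67) in pacDNA-Scr. These comparisons share the 8 NT mice.

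*Hspb7* was at 1009.7, 2409, 1861 and 1769.8 CPM in the mice given 5.3 mg/kg. The 21.2 mg/kg mice held 1018, 1318 and 1665 CPM, and those given free L9 held 1103, 722 and 1027 CPM. No treated mouse came as low as the highest WT mouse. The lowest was L9 mouse B, with 722 CPM against 428 CPM. The log2 fold change with free L9 was -0.41 (-1.04 to 0.23), and at 5.3 mg/kg it was 0.42 (-0.14 to 0.98).

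Free L9, pacDNA-L9 and pacDNA-Scr were each given at 5.3 mg/kg. *Cryab* was at 777, 1936, 1237 and 1348 CPM with pacDNA-L9, 1512, 914 and 643 CPM with L9, and 482 and 1198 CPM with pacDNA-Scr. *Bag3* was at 176, 171, 122 and 253 CPM, at 227, 121 and 168 CPM, and at 174 and 202 CPM in the same order. The ranges of the 3 treatments overlapped for both genes, and the treatments were not tested against each other. *Hspa8* was at 847, 826 and 799 CPM with free L9, at 599 and 638 CPM in Brush and at 409.9, 376 and 622 CPM at 21.2 mg/kg, where its log2 fold change was -0.52 (-1.08 to 0.05).

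Over all 8 groups together, *Hspb1* and *Hspb7* differed, with edgeR adjusted p of 0.000394 and 1.21e-05, against a background of 5.99% of genes. *Bag3* had 0.071. In the order of group means, neighbours mostly lay within the larger SD of the pair. For *Hspb1* the gap from 42.4 mg/kg down to 5.3 mg/kg and that from 21.2 mg/kg down to WT were wider, for *Hspb7* that from free L9 down to WT, for *Hspa8* those from 42.4 mg/kg down to free L9 and from Brush down to 21.2 mg/kg, and for *Bag3* that from 42.4 mg/kg down to pacDNA-Scr. For *Hspa1a*, *Hspa1b*, *Hsph1*, *Hsp90aa1*, *Dnajb1* and *Cryab* no neighbours were further apart than that SD.

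Levels between genes were compared per kilobase of the canonical transcript. The median library held 569 CPM per kilobase of *Cryab*, 452 of *Hspb1*, 376 of *Hspb7*, 255 of *Hspa8* and 64.7 of *Bag3*. *Hsp90aa1* and *Hsph1* were at 15.7 and 15.6 CPM per kilobase, *Hspa1b* at 8.42, *Dnajb1* at 2.82 and *Hspa1a* at 2.67. On this scale of levels the small heat shock genes and the constitutive HSP70 made up most of the set's RNA.

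The inducible genes differed more between mice than between groups. *Hspa1a* ran from 0.281 CPM in WT mouse 2, which rests on 5 counts, to 439 CPM in mouse D at 5.3 mg/kg, a 1564-fold range. *Hspa1b* spanned a 368-fold range between the same mice, from 1.85 to 681 CPM. In NT, *Hspa1a* ran from 1.44 to 58.0 CPM with a median of 6.08 CPM, and in WT it was at 10.1, 0.281, 1.20, 1.60 and 12.7 CPM. At 42.4 mg/kg it was at 17.2, 6.44 and 11.8 CPM, and with free L9 at 16.5, 1.12 and 102 CPM. The groups overlapped throughout.

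After group and set were taken out, the SD of log2 CPM between mice was 1.94 for *Hspa1a* and 1.81 for *Hspa1b*, above 99.7% and 99.5% of all 17518 tested genes. It was 0.89 for *Dnajb1* and 0.79 for *Hsp90aa1*. Genes within 0.5 of the same mean log2 level had a median SD of 0.34 for *Hspa1a*, 0.31 for *Dnajb1* and 0.25 for *Hsp90aa1*. The other members had SDs from 0.32 for *Bag3* to 0.61 for *Cryab*.

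Mouse D at 5.3 mg/kg stood apart. It held 439 CPM of *Hspa1a*, 681 of *Hspa1b*, 323 of *Hsp90aa1*, 59.2 of *Dnajb1* and 192 of *Hsph1*. Mice A, B and C of its group held 2.70 to 8.06, 10.9 to 12.7, 46.3 to 53.7, 7.85 to 11.5 and 89.6 to 104 CPM of these genes. Its *Hspb1* and *Bag3* were the highest of the 4 as well, at 807 and 253 CPM, while its *Hspb7* and *Cryab*, at 1769.8 and 1348 CPM, lay within the range of the other 3. Mice C and D belong to the second set and A and B to the first, and D is the 1 male of the group. The part of set or sex in its values was not tested.

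The 10 genes varied together within groups. Correlations are given over 30 residuals of log2 CPM, which share the library they come from, as a description with no p. The median Pearson r of the 45 pairs was 0.62, from 0.17 to 0.98, while the median over all pairs of tested genes was 0.01. *Hspa1a* and *Dnajb1* had r = 0.93 (Spearman's rho 0.90, r = 0.92 without the 2 farthest mice, 0.90 in the first set). *Hspa1a* and *Bag3* had r = 0.83 (rho 0.83, r = 0.77 and 0.78). *Hspa8* and *Hsp90aa1* had r = 0.87 (rho 0.84, r = 0.82 and 0.79), and *Hspa8* and *Hsph1* had r = 0.85 (rho 0.81, r = 0.78 and 0.87).

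*Hspb7* was least tied to the inducible genes. Its r was 0.17 with *Dnajb1*, 0.22 with *Hspa1b* and 0.25 with *Hspa1a*, and 0.64 with *Cryab* (rho 0.50, r = 0.48 without the 2 farthest mice). *Hspb1* had r = 0.75 with *Bag3* (rho 0.72, r = 0.75 and 0.69 in the first set), 0.72 with *Cryab* and 0.72 with *Hspa1a*. Among Hspa1a, Hspa1b, Hsph1 and Dnajb1 the median r of 6 pairs was 0.73, from 0.35 to 0.98. The pairs of *Hsph1* were the low ones, at 0.35, 0.45 and 0.55. *Hsph1* had 0.85 with *Hspa8* and 0.84 with *Hsp90aa1*. Among Hspb1, Hspb7, Cryab and Bag3 the median r was 0.57, from 0.35 to 0.75. Across these sets of 4 the median of 16 pairs was 0.54, from 0.17 to 0.83.

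**Figure D4:**
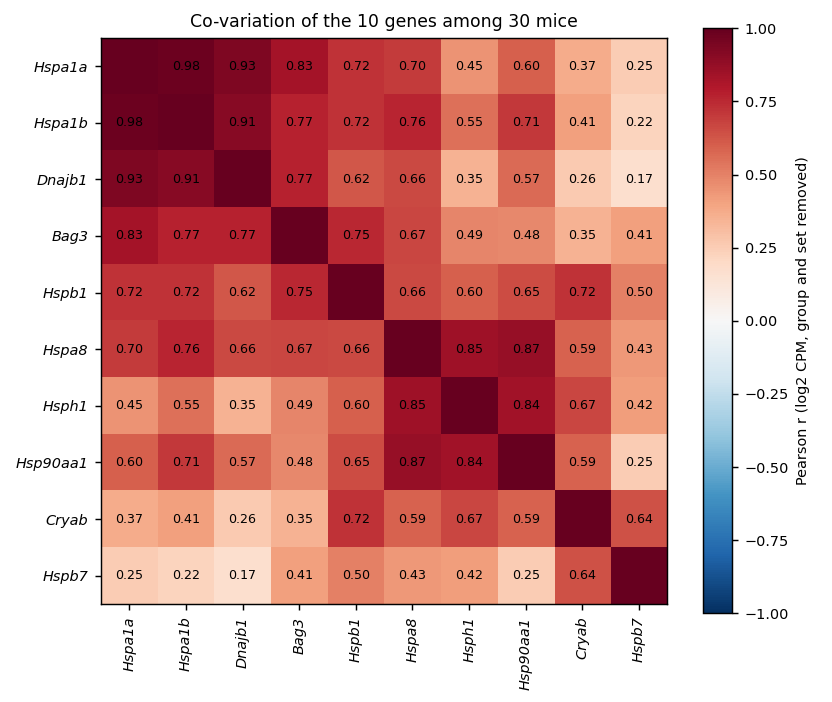
Pearson r between each pair of the 10 genes over 30 mice, from log2 CPM with group and deposited set taken out, coloured from -1 to 1. *Hspa1a*, *Hspa1b* and *Dnajb1* form a block at 0.91 to 0.98, and the row of *Hspb7* holds the lowest value, 0.17.

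The genes most like the mean profile of *Hspa1a*, *Hspa1b*, *Hsph1* and *Dnajb1*, among 9564 genes with a mean of at least 5 CPM, were *Tubb2a* (r = 0.86), *Nherf2* (0.81), *Myod1* (0.80), *Zyx* (0.80) and *Rcan1* (0.78). For the mean profile of *Hspb1*, *Hspb7*, *Cryab* and *Bag3* they were *Dnaja4* (0.83), *Tnfrsf12a* (0.83), *Rcan1* (0.82), *Atf3* (0.81) and *Aurkaip1* (0.81). *Rcan1*, an inhibitor of calcineurin, stood in both lists. Without the 2 farthest mice the r of these genes ran from 0.71, for *Rcan1* with the first profile, to 0.84, for *Tubb2a*. Each profile was a mean of log2 residuals that were not scaled per gene. The first therefore follows mostly *Hspa1a* and *Hspa1b*, with SDs of 1.94 and 1.81, against 0.89 for *Dnajb1* and 0.41 for *Hsph1*.

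The summed level of the 13 immediate early genes moved with some members. Its r over the 30 residuals was 0.71 with *Dnajb1* (rho 0.72), 0.71 with *Bag3* (0.72), 0.62 with *Hspa1a* (0.63) and 0.55 with *Hspa1b* (0.55). It was -0.01 with *Hsph1* and *Cryab* and 0.09 with *Hsp90aa1*. The sum ran from 248 to 475 CPM in WT, 321 to 1227 CPM in NT and 639 to 1037 CPM at 42.4 mg/kg. It ran from 339 to 955 CPM at 5.3 mg/kg and from 345 to 879 CPM at 21.2 mg/kg. It was 364 to 1166 CPM with free L9, 552 to 635 CPM in Brush and 1140 to 1190 CPM in pacDNA-Scr. Summed red blood cell markers had r = 0.67 with *Hspa1a*, 0.30 with *Hspb1* and 0.44 with *Hspb7*. Their part in these levels was not tested.

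*Hspa1a* and *Hspa1b* are near-identical copies on chromosome 17 (35188166 to 35191132 and 35175412 to 35178214, both minus strand, GRCm39), each with a single exon. Their coding sequences are identical at 99.4% of 1926 aligned positions, and their promoter windows differ at 4 of 300 bases, while the whole transcripts are identical at 84.4% of aligned positions. Their separate counts are thus uncertain, and the treatment of reads that fit both is not given in the sources used here. Of the exon bases of *Hspa1a*, 19.0% overlap *Gm20481* on the other strand, against 0.0% for *Hspa1b*. The part of this overlap in the counts was not tested. In the first set, *Hspa1b* had 2.85 to 15.4 times the counts of *Hspa1a*, with a median of 3.87. In the second set it had 1.29 to 1.60 times, with a median of 1.56. The ratios of the sets did not overlap. The highest ratio, 15.4, came from L9 mouse B, with 20 and 308 counts. In the 17 first-set libraries with at least 50 counts of *Hspa1a* the ratio ran from 2.85 to 5.18. Why the sets differ was not tested.

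Summed into 1 feature, the pair had a log2 fold change of 0.10 between NT and WT and 0.90 at 42.4 mg/kg, with edgeR adjusted p of 1.0 and 0.855. The correlation of the copies over mice, r = 0.98, holds within the first set, at 0.97, and reads shared between copies would add to it.

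**Figure D5:**
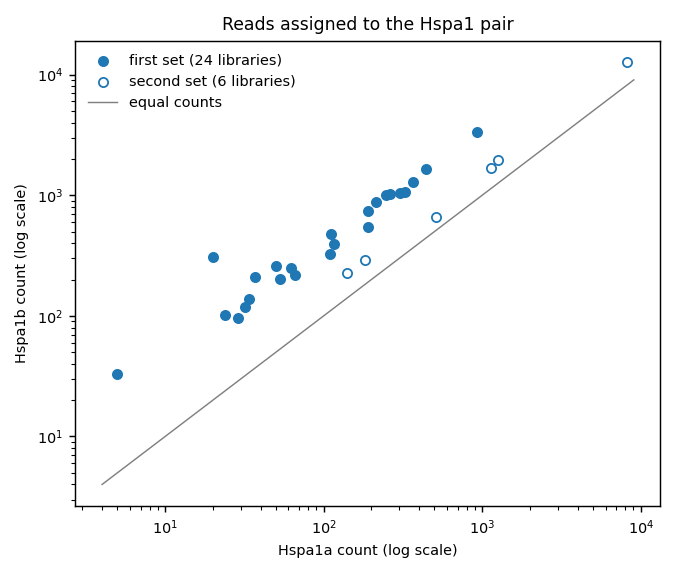
Counts of *Hspa1b* against *Hspa1a* in each library, both on log axes, with filled points for the 24 libraries of the first set, open points for the 6 of the second and a line of equal counts. All points lie above the line, at a median ratio of 3.87 in the first set and 1.56 in the second.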

How the data were processed

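The authors made poly(A) libraries from quadriceps RNA of 30 mice, sequenced them as paired-end reads, and trimmed and mapped the reads to GRCm39. The submitters' processing notes name HISAT2 2.0.5 and DESeq2, and the study names Rsubread. The annotation release, strand setting and handling of multimapping reads are not given in the sources used here. The authors deposited raw counts per gene, whole numbers without normalization.

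The 10 genes and the other gene lists were chosen with earlier results of these data known. Groups came from the labels. One column fits the fifth WT mouse by group only and is called the unnumbered WT mouse. Sex was read from sex-linked genes. Counts were fitted with edgeR 4.0.16 in R 4.3.3 (filterByExpr, TMM, robust quasi-likelihood F-test) over all 30 libraries, with a coefficient for each group and for the deposited set. Benjamini-Hochberg adjustment ran over the 17518 genes tested, at a threshold of 0.05 with no fold limit. Intervals cover 95%. The fit was tested on simulated counts. CPM used TMM library sizes, and means and SDs over mice were not adjusted for set. Library totals of 13605309 to 26956558 counts leave low genes the least precise. Intervals are for the fitted log2 fold changes and not for the spread of single mice. The SE was worked back from the log2 fold change and its F value.

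Named genes were all 10 members, up to 4 called genes with the largest log2 fold change from each list, and the 5 genes most correlated with each of 2 mean profiles. *Hspb2*, *Hspb3*, *Hspb8* and *Hsf1* were added after their values were seen. Alternatives were DESeq2 1.42.0, RLE or library size alone, no filter on low counts, no set term, the first set only, sex or library naming as a term, no robust fit, a replicate block, the *Hspa1* pair summed, and each mouse left out. The result of 1 marker list is not reported here.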

Additional observations from a re-analysis of the deposited data

Results flagged for a closer look

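In each group of 4 to 10 mice, the highest and the lowest log2 CPM of each member were compared with the nearest other value by Dixon's ratio, in 30 groups of values. Chance flags about 1 in 20 such groups, and 4 were flagged. *Hspa1b* in mouse D at 5.3 mg/kg, at 681 CPM, stood above the next mouse at 12.7 CPM. *Hsp90aa1* in the same mouse, at 323 CPM, stood above 53.7 CPM. *Hsp90aa1* in NT mouse 7, at 149 CPM, stood above 66.4 CPM, by a ratio of 0.528 against a limit of 0.526. Both mice belong to the second deposited set. *Cryab* in NT mouse 2, at 336 CPM, stood below the next NT mouse at 791 CPM.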

How the results depend on the processing

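The number of members called was 2 between NT and WT under every alternative run, and both genes kept their direction. At 42.4 mg/kg it was 1, and 0 with library naming as a term and 2 with sex as a term. With 1 mouse left out it ran from 0 to 2. It was 0 without mouse A or B of that group and 2 without the unnumbered WT mouse or L9 mouse B. Of 885 values under other settings, counts included, 27 lost a call and 1 gained one. With 1 mouse left out, 55 of 2550 lost a call and 2 gained one. No called value changed direction. The same replicate numbers stand in WT and NT, but the residuals of mice with the same number had correlations of 0.144, -0.0493, 0.106 and 0.168, so that not every pair passed 0.1 and the numbers were not taken as a pairing. With the replicate block, fitted to 8 mice, 2 members and 631 genes were called, against 680 genes in the same mice without it, a fit added after seeing the data. Counts over all genes moved more. At 42.4 mg/kg 550 genes were called, 240 with naming as a term, 126 without mouse B of that group and 945 without L9 mouse B. With free L9 165 were called, 525 by DESeq2, 354 in the first set, 22 without the set term and 58 (without NT mouse 7) to 1360 (without L9 mouse A) with 1 mouse left out. At 21.2 mg/kg 12 were called, 19 by DESeq2, 2 in the first set and 2 to 20 with 1 mouse left out. Between NT and WT 930 were called, 704 to 1585 with 1 mouse left out, the highest without L9 mouse B. Over any difference 1049 were called, 2148 by DESeq2, 673 without mouse B at 42.4 mg/kg and 1780 without L9 mouse B. In Brush, where none was called, DESeq2 called 5, and at 5.3 mg/kg it called 1. The naming of libraries and the dose of 42.4 mg/kg cannot be fully told apart, since all 3 mice are named this way. Nor can the dose be told apart from repeated injection and handling, since NT mice were not treated. Groups of 2 or 3 mice limit what could be called.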
